A study of Homo sapiens with 24 samples.

Results

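Transcript levels of 38 ribosome biogenesis genes, of 34213 genes in the count table, are described in HEL cells treated with JAK inhibitors. The members were listed by gene name, for known roles in the nucleolus, in rRNA processing or in RNA polymerase I, and all 38 were in the table and passed the filter on low counts. HEL, a human erythroleukaemia line, has an activating mutation in JAK2. It was treated with 500 nM ruxolitinib, fedratinib, momelotinib, pacritinib or itacitinib, or with DMSO, the solvent, and total RNA was taken after 4 h or 48 h and sequenced. Ruxolitinib and momelotinib inhibit JAK1 and JAK2, fedratinib and pacritinib act mainly on JAK2, and itacitinib mainly on JAK1. The 12 groups, 1 for every treatment at either time, have n = 2 libraries each. Separate cultures are not mentioned in the labels, so a p-value reflects how far these libraries spread, and that spread may be technical.

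Ribosomes are made in the nucleolus. RNA polymerase I transcribes a long precursor rRNA, small nucleolar ribonucleoproteins (snoRNPs) guide its chemical modification and first cleavages, and separate sets of assembly factors and helicases build the small and the large subunit before export to the cytoplasm. The genes for these proteins are transcribed by RNA polymerase II, are highly expressed in growing cells, and include many with a MYC-binding E-box near the start. The values below are transcript levels of those genes and measure neither rRNA synthesis nor ribosome number.

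The E-box CACGTG, the site that MYC with MAX and related factors can bind, was searched in the RefSeq promoter windows of GRCh38.p14, from 250 bases before to 50 bases after each start. It reads the same on both strands. A window was held for 33 of the 38 members, and 11 of these (33.3%) contained an E-box. The share was 31.1% of 106 windows of other ribosome biogenesis genes, 9.78% of 11333 windows of tested genes and 7.43% of all 27305 windows. Of the 12 E-boxes in the members, 11 lay within 40 bases of the start. The STAT motif TTCNNNGAA, also the same on both strands, was in 1 of 33 member windows (3.03%, POLR1B), against 6.49% of windows of tested genes. A match describes letters in a window and not binding. Sites of 9 of these 11 members are printed, and all 11 are set beside the response to ruxolitinib at 48 h further on. NOP10 has 2 E-boxes, of which the 1 nearer the start is shown, and the sites of BYSL and FBL are left out. Each line gives 30 bases in the direction of the gene, with the E-box in capitals.
RRP9 (chr3:51941892-51941921, minus strand): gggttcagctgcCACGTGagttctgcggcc
UTP20 (chr12:101280083-101280112, plus strand): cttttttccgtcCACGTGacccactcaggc
UTP4 (chr16:69132621-69132650, plus strand): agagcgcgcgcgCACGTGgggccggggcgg
MRTO4 (chr1:19251807-19251836, plus strand): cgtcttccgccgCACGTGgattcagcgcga
NOP2 (chr12:6568242-6568271, minus strand): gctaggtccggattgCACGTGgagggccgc
PES1 (chr22:30591880-30591909, minus strand): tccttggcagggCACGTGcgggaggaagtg
WDR43 (chr2:28894658-28894687, plus strand): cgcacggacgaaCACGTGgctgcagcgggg
NOP10 (chr15:34343130-34343159, minus strand): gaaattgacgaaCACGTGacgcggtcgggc
NOP14 (chr4:2963374-2963403, minus strand): tccgcggcccggCACGTGtcttagggtagc
The bases on either side of the E-box differ from gene to gene.

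Total counts per library were 32153866 to 56618281, and the 38 members together took 0.792 to 0.980% of them. Levels are given as CPM (counts relative to the total of the library, on the usual CPM scale), scaled by the trimmed mean of M-values. The HEL markers HBG2, ITGA2B, GATA1, TAL1 and KLF1 were each at 97.1 CPM of total counts or more in every library, and the lymphoid and epithelial markers CD3E, MS4A1 and EPCAM at 0.303 or less. CISH and SOCS3, direct targets of JAK and STAT signalling, were lower with ruxolitinib at 4 h by -1.76 ± 0.08 and -2.61 ± 0.15 on the log2 scale. By the test given below, they were also lower at 4 h with momelotinib (-0.34 and -1.04) and pacritinib (-0.57 and -1.22). With fedratinib and itacitinib neither was called at either time. At 48 h both were lower with ruxolitinib (-0.33 and -1.69), higher with pacritinib (0.43 and 0.46) and not called with momelotinib. RN7SL RNAs, the RNA of the signal recognition particle and its copies, took 2.42 to 4.76% of counts. The DMSO libraries at 4 h had the lowest RN7SL shares of all 24, and DMSO replicate 2 at 4 h also had the lowest share of mitochondrial rRNA.

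Per kilobase of exonic length (GENCODE 29), the median level over the 4 DMSO libraries was highest for NCL (387 CPM per kb), the nucleolar shell protein nucleolin, then NOP10 (295 CPM per kb), NPM1 (269 CPM per kb) and FBL (137 CPM per kb). It was lowest for UTP15 (5.28 CPM per kb), POLR1C (6.59 CPM per kb) and PPAN (7.49 CPM per kb). Over all 24 libraries the ratio of a member's highest to lowest CPM ran from 1.15 for NOP14 to 1.63 for DDX21, and no member changed 2-fold in any comparison with DMSO.

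With ruxolitinib, 13 of the 38 members fell at 4 h, and at 48 h 22 fell and 1 rose. Fedratinib, momelotinib and pacritinib lowered 4 to 10 of them at 4 h and at most 4 at 48 h, and itacitinib moved none past the threshold. A gene is called here when its adjusted p (edgeR quasi-likelihood test, Benjamini-Hochberg over 16076 genes) is under 0.05. At 4 h ruxolitinib lowered 13 members and raised 0, a share set beside 5.04% of all tested genes called lower and 3.42% called higher. Their median log2 fold change was -0.13, against 0.00 for all tested genes. Fedratinib at 4 h lowered 6 members and raised 0, against 0.97% and 0.616% of all genes, with a median of -0.13. Momelotinib lowered 4 and raised 0, against 3.79% and 2.21%, with a median of -0.10. Pacritinib at 4 h lowered 10 and raised 2, against 17.4% and 13.1% of all genes, with a median of -0.07. Counting both directions, the share of members called with pacritinib at 4 h stood near that of all genes. The share of members lower was above that of all genes, and the share higher was below it. With itacitinib at 4 h edgeR called 0 members (DESeq2 0, and 6 at an unadjusted p under 0.05), where 0.106% of all genes were called lower and 0.672% higher. With 1 library left out the itacitinib median was -0.07 to -0.06, and that of pacritinib -0.06 to -0.04. The adjusted p depends on all genes of a comparison, so these counts do not rank the inhibitors by size of change. The 5 comparisons share the DMSO libraries of their time, so their members' values are not independent of each other. Every member had a median of 18.4 CPM or more over the 24 libraries. Only 7891 of the 16076 tested genes reached a mean log2 CPM of 4, and low counts make a call harder. The share called among genes of similar level was not computed. In these bulk samples fewer cells of a type and less RNA per cell cannot be told apart.

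At 48 h ruxolitinib lowered 22 members and raised 1, against 13.2% and 12.5% of all genes, and the median was -0.17 (0.01 for all tested genes). Fedratinib at 48 h raised 2 and lowered 0, where 3.66% and 4.04% of all genes were called, with a median of 0.02. Momelotinib lowered 1 member and raised 0, against 0.946% and 0.995% of all genes (median -0.06). DESeq2 called 5 members there. At the same time pacritinib lowered 4 and raised 1 (10.1% and 8.26%, median -0.04). With itacitinib at 48 h edgeR again called 0 members (DESeq2 0, and 3 at an unadjusted p under 0.05), against 0.355% of all genes lower and 0.0871% higher. For pacritinib and for fedratinib, both at 48 h, the members' shares stood near those of all genes.
The counts rest on few libraries. Without 1 library the ruxolitinib count at 4 h of 13 was 8 (DMSO replicate 1), 2 (DMSO replicate 2), 5 (ruxolitinib replicate 1) or 7 (ruxolitinib replicate 2), while the median stayed between -0.13 and -0.11. The ruxolitinib count at 48 h of 23 was 14 without DMSO replicate 1 and without ruxolitinib replicate 2. At 4 h the fedratinib count of 6 was 0 to 2 without any 1 of its 4 libraries, the momelotinib count of 4 was 1 without DMSO replicate 2, and the pacritinib count of 12 was 6 without DMSO replicate 2 or pacritinib replicate 2. At 48 h without any 1 of the 4 libraries compared the fedratinib count of 2 was 1, the momelotinib count of 1 was 0 and the pacritinib count of 5 was 1 to 3.

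**Figure D1:**
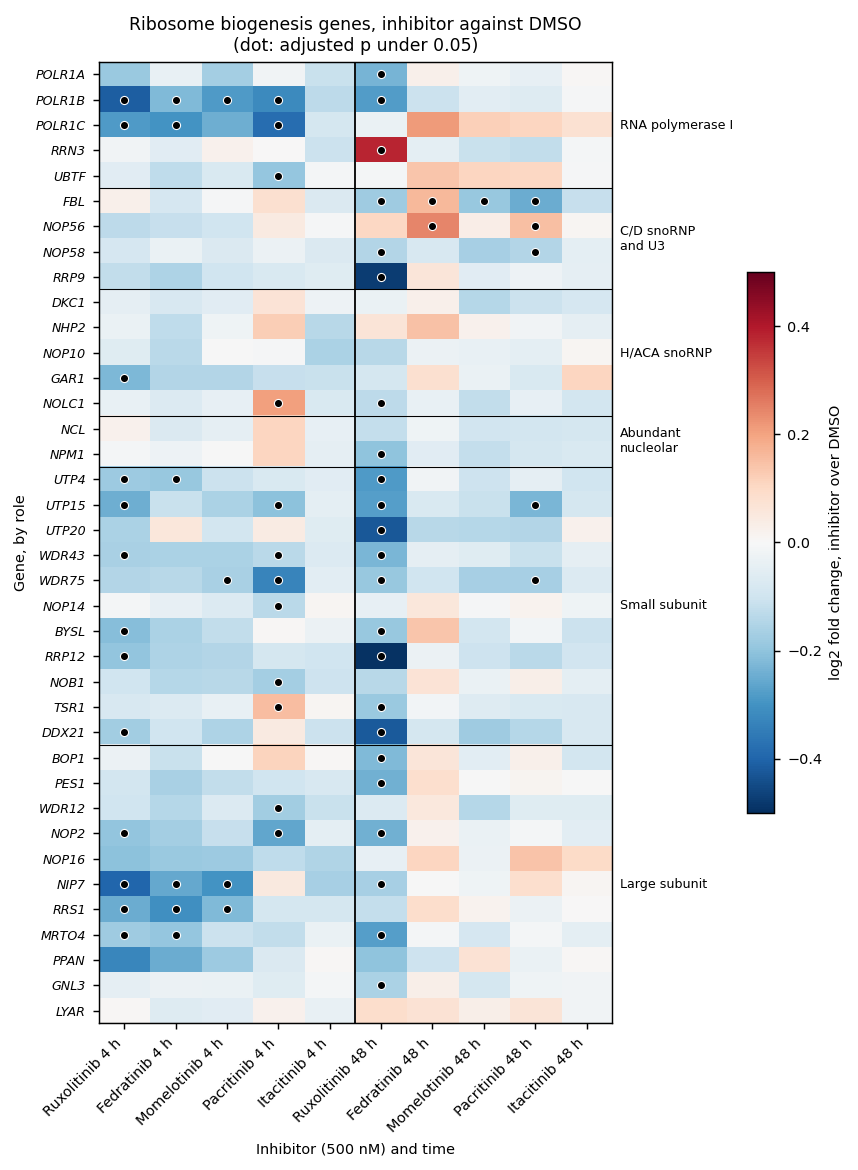
Log2 fold change of each member (rows, grouped by role) in each inhibitor over DMSO at the same time (columns, 4 h at left and 48 h at right), with a dot where the adjusted p is under 0.05. Ruxolitinib at 48 h has 23 dots, of which RRN3 is the only one in red, and the itacitinib columns have 0.

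**Figure D2:**
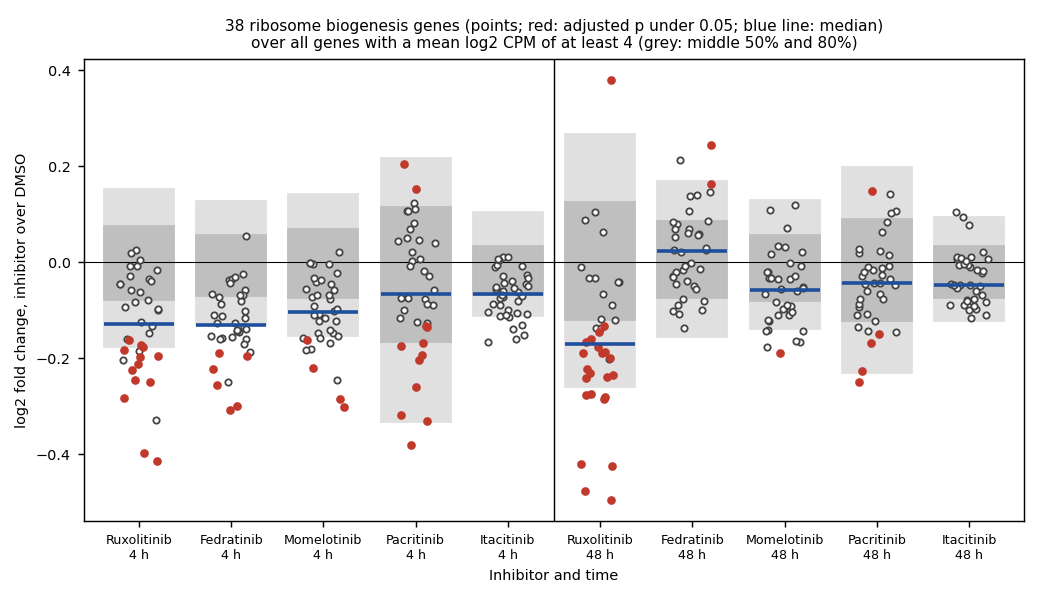
Log2 fold changes of the 38 members (points, red where the adjusted p is under 0.05) with their median (blue line), over grey bands that hold the middle 50% and 80% of the 7891 genes whose mean log2 CPM reached 4. With ruxolitinib the median sits at -0.13 at 4 h and -0.17 at 48 h, below the middle 50% band at both times. The fedratinib and momelotinib medians at 4 h are below that band too.

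The largest decrease of a member at 4 h was in a gene of RNA polymerase I, and 2 of its 5 genes were lower with ruxolitinib, 2 with fedratinib, 1 with momelotinib and 3 with pacritinib. POLR1B, its second-largest subunit (ENSG00000125630, chromosome 2 from 112541915 to 112577150, plus strand), was lower with 4 of the 5 inhibitors at 4 h. In the 4 h libraries it had 86.02 and 87.8 CPM under ruxolitinib, 95.9 and 102 under fedratinib, 89.8 and 100.1 under momelotinib, 95.2 and 90.4 under pacritinib and 109 and 102 under itacitinib, against 116 and 116 CPM under DMSO. The ruxolitinib libraries were the lowest, and every inhibitor library was below both DMSO libraries. The log2 fold change was -0.41 ± 0.05, adjusted p = 1.6e-06 with ruxolitinib, -0.32 ± 0.05, adjusted p = 2.25e-05 with pacritinib and -0.28 ± 0.05, adjusted p = 0.000586 with momelotinib, and these 3 calls were kept under every alternative run. With fedratinib it was -0.22 ± 0.05, adjusted p = 0.0253, and this call was lost in the fit to the libraries of that time alone or without any 1 of the 4 libraries compared (adjusted p = 0.0556 to 0.232). At 48 h POLR1B had 95.3 and 89.7 CPM under ruxolitinib, against 112 and 113 CPM under DMSO, a log2 fold change of -0.28 ± 0.05, adjusted p = 0.000145, and no other inhibitor was called. Among the members it was called lower in the most comparisons with DMSO, 5 of 10.

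POLR1C, a subunit that RNA polymerase I shares with RNA polymerase III (chromosome 6 from 43509702 to 43562419), had 30.4 and 34.1 CPM under ruxolitinib, 33.3 and 30.7 under fedratinib, 34.2 and 32.1 under momelotinib, 32.5 and 27.9 under pacritinib and 35.1 and 38.8 under itacitinib, against 40.1 and 38.5 CPM under DMSO at 4 h. The ruxolitinib, fedratinib, momelotinib and pacritinib libraries were all below DMSO, and itacitinib replicate 2 was not below DMSO replicate 2. POLR1C fell with pacritinib (-0.38 ± 0.08, adjusted p = 0.000283), with fedratinib (-0.30 ± 0.08, adjusted p = 0.0396) and with ruxolitinib (-0.28 ± 0.08, adjusted p = 0.0174). The pacritinib call was kept under every alternative. The fedratinib call was lost in the fit to the libraries of that time alone or without any 1 of the 4 libraries compared (adjusted p = 0.0771 to 0.348). The ruxolitinib call was lost without either DMSO library or ruxolitinib replicate 1 (adjusted p = 0.0626 to 0.266). At 48 h POLR1C had 31.6 and 33.2 CPM under ruxolitinib, 38.9 and 37.9 under fedratinib and 34.5 and 36.8 under pacritinib, against 34.6 and 31.6 CPM under DMSO, and 0 of the 5 inhibitors were called.

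RRN3, the initiation factor that brings RNA polymerase I to the rDNA promoter, was the only member raised by ruxolitinib. At 48 h it had 132 and 149 CPM under ruxolitinib, 102 and 107 under fedratinib, 98.97 and 102 under momelotinib, 97.6 and 101 under pacritinib and 105 and 110.1 under itacitinib, against 104 and 113 CPM under DMSO. Both ruxolitinib libraries were above all 10 other libraries of that time. The log2 fold change was 0.38 ± 0.06, adjusted p = 2.53e-06, kept under every alternative. At 4 h RRN3 had 128 and 131 CPM under ruxolitinib, against 129 and 133 CPM under DMSO and was not called (-0.02 ± 0.06, adjusted p = 0.916). GENCODE 29 names 2 RRN3 pseudogenes, whose reads can be assigned to either copy.
POLR1A, the largest subunit, was at 248 and 237 CPM under ruxolitinib, against 291 and 279 CPM under DMSO at 48 h (-0.23 ± 0.06, adjusted p = 0.00629), and the call was lost without DMSO replicate 1 or ruxolitinib replicate 2 (adjusted p = 0.0709 to 0.0801). UBTF, which binds rDNA and keeps it open for transcription, was lower with pacritinib at 4 h, at 214 and 201 CPM under pacritinib, against 229 and 245 CPM under DMSO (-0.19 ± 0.05, adjusted p = 0.00187), and this call was lost without DMSO replicate 2 or pacritinib replicate 2 (adjusted p = 0.0796 to 0.0822).

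**Figure D3:**
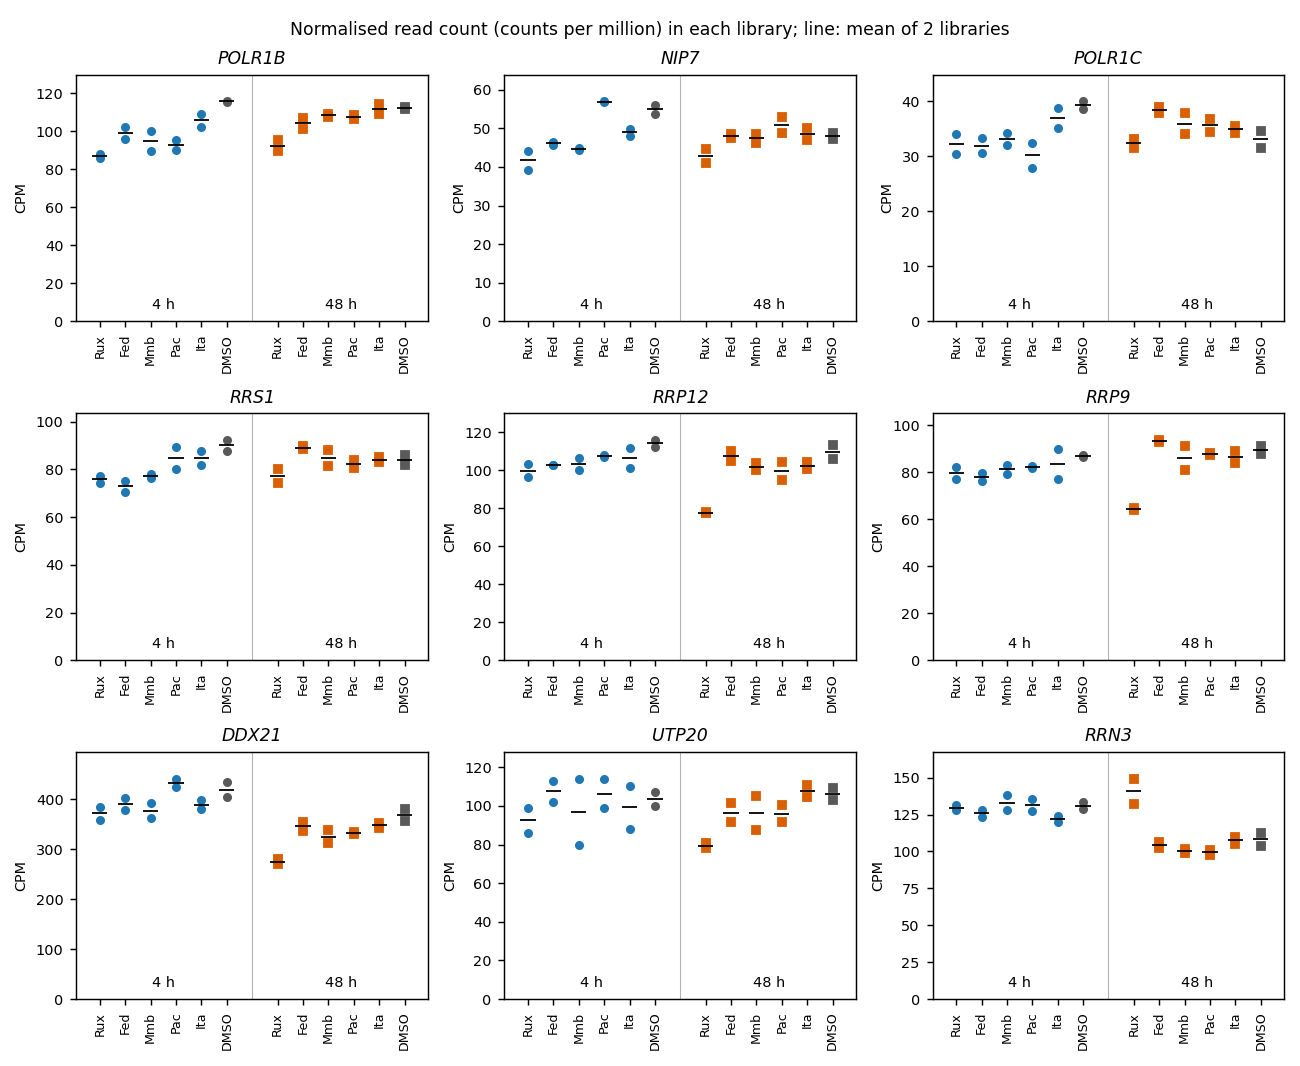
CPM of 9 members in each library, with circles for 4 h, squares for 48 h, grey for DMSO and a line at the mean of the 2 libraries (Rux, ruxolitinib; Fed, fedratinib; Mmb, momelotinib; Pac, pacritinib; Ita, itacitinib). POLR1B and NIP7 are lowest with ruxolitinib at 4 h, whereas RRP12, RRP9 and DDX21 are lowest and RRN3 is highest with ruxolitinib at 48 h.

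Among the 4 genes of the box C/D snoRNPs, which guide ribose methylation of rRNA, 0 were called with any inhibitor at 4 h, and the calls at 48 h went in different directions. RRP9, the protein specific to the U3 snoRNP that is needed for the first cleavages (ENSG00000114767, chromosome 3 from 51933430 to 51941941), had 63.96 and 64.8 CPM under ruxolitinib, 93.9 and 92.8 under fedratinib, 80.9 and 91.3 under momelotinib, 87.5 and 88.2 under pacritinib and 89.2 and 84.2 under itacitinib, against 87.8 and 91.3 CPM under DMSO at 48 h. Both ruxolitinib libraries were below every other library of the series, and the 8 libraries of the other inhibitors lay between 80.9 and 93.9 CPM. The log2 fold change of RRP9 with ruxolitinib was -0.48 ± 0.06, adjusted p = 2.68e-07, kept under every alternative.

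FBL, fibrillarin, the methyltransferase of these particles, had 258 and 256 CPM under ruxolitinib, 324 and 327 under fedratinib, 251 and 259 under momelotinib, 245 and 244 under pacritinib and 269 and 267 under itacitinib, against 297 and 285 CPM under DMSO at 48 h. Fedratinib was above both DMSO libraries, and the other 4 inhibitors were below them. FBL was higher with fedratinib (0.16 ± 0.04, adjusted p = 0.0192) and lower with pacritinib (-0.25 ± 0.04, adjusted p = 0.000137), momelotinib (-0.19 ± 0.04, adjusted p = 0.0198) and ruxolitinib (-0.18 ± 0.04, adjusted p = 0.00306). The pacritinib call was kept under every alternative. The fedratinib call was lost without any 1 of the 4 libraries compared (adjusted p = 0.0546 to 0.274). The momelotinib call was lost without any 1 of the 4 libraries compared (adjusted p = 0.0735 to 0.265), and the ruxolitinib call without DMSO replicate 1 (adjusted p = 0.0621). Its difference between fedratinib and pacritinib was 0.41 ± 0.04 (adjusted p = 4.74e-08).

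NOP56, a core protein of the same particles, moved the other way from FBL with pacritinib. At 48 h it had 246 and 243 CPM under ruxolitinib, 265 and 274 under fedratinib and 265 and 239.5 under pacritinib, against 227 and 227 CPM under DMSO. All 6 of these inhibitor libraries were above both DMSO libraries. NOP56 was higher with fedratinib (0.25 ± 0.05, adjusted p = 0.000717, kept under every alternative) and with pacritinib (0.15 ± 0.05, adjusted p = 0.0217), where the call was lost without either DMSO library or pacritinib replicate 1 (adjusted p = 0.123 to 0.495). With ruxolitinib it was not called (0.10 ± 0.05, adjusted p = 0.0984). NOP58, its partner, was lower with ruxolitinib (-0.15 ± 0.05, adjusted p = 0.0205) and pacritinib (-0.15 ± 0.05, adjusted p = 0.025). The NOP58 calls were lost without DMSO replicate 1 or ruxolitinib replicate 2 (adjusted p = 0.139 to 0.162) and without either DMSO library or pacritinib replicate 2 (adjusted p = 0.0533 to 0.171).

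Few of the genes of the box H/ACA snoRNPs, which guide pseudouridylation, were called. DKC1, the pseudouridine synthase dyskerin, and its partners NHP2 and NOP10 were called in 0 of the 10 comparisons with DMSO. GAR1, the remaining core protein, was lower with ruxolitinib at 4 h, at 48.2 and 46.7 CPM under ruxolitinib, against 54.1 and 56.6 CPM under DMSO (-0.22 ± 0.06, adjusted p = 0.0195), a call lost without DMSO replicate 2 or either ruxolitinib library (adjusted p = 0.0675 to 0.217). NOLC1, a phosphoprotein that chaperones snoRNPs through the nucleolus, had 434 and 441 CPM under ruxolitinib, 426 and 431 under fedratinib, 432 and 441 under momelotinib, 504 and 531 under pacritinib and 425 and 427 under itacitinib, against 451 and 447 CPM under DMSO at 4 h. The pacritinib libraries were above every other library of that time. NOLC1 rose with pacritinib (0.20 ± 0.04, adjusted p = 0.000368), kept under every alternative. At 48 h it had 377 and 378 CPM under ruxolitinib and 405 and 398 under pacritinib, against 426 and 402 CPM under DMSO. It was lower with ruxolitinib (-0.13 ± 0.04, adjusted p = 0.0209), a call lost without DMSO replicate 1 or either ruxolitinib library (adjusted p = 0.089 to 0.255).

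The abundant nucleolar proteins differed. NCL was not called in any comparison with DMSO, at 2285 to 3056 CPM over the 24 libraries. NPM1, nucleophosmin, had 885 and 849 CPM under ruxolitinib, against 1008 and 983 CPM under DMSO at 48 h, with both ruxolitinib libraries below DMSO, and a log2 fold change of -0.20 ± 0.05, adjusted p = 0.00153, kept under every alternative. GENCODE 29 names 45 NPM1 pseudogenes, so its level may be split with them.

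The small-subunit factors had the largest share of calls of the 6 roles with ruxolitinib, with 6 of 11 lower at 4 h and 9 of 11 at 48 h. RRP12, a factor for export of the pre-ribosome (ENSG00000052749, chromosome 10 from 97356358 to 97426076), had 77.4 and 78.1 CPM under ruxolitinib, 110.0 and 105 under fedratinib, 100.1 and 104 under momelotinib, 94.96 and 105 under pacritinib and 104 and 101 under itacitinib, against 113 and 106 CPM under DMSO at 48 h. The ruxolitinib libraries were below every other library of the series. DDX21, an RNA helicase of the nucleolus, had 279.9 and 270.4 CPM under ruxolitinib, 337 and 354 under fedratinib, 313 and 339 under momelotinib, 336 and 330.5 under pacritinib and 343 and 353 under itacitinib, against 356 and 379.9 CPM under DMSO at 48 h, again with both ruxolitinib libraries below the rest. UTP20, a large scaffold of the early pre-ribosome, had 80.5 and 77.95 CPM under ruxolitinib, against 103 and 109 CPM under DMSO. Its groups were separate at 48 h, but at 4 h its momelotinib libraries spread widely, at 79.9 and 114 CPM. With ruxolitinib at 48 h the log2 fold change was -0.50 ± 0.06, adjusted p = 2.09e-08 for RRP12, -0.42 ± 0.05, adjusted p = 1.67e-07 for DDX21 and -0.42 ± 0.11, adjusted p = 0.00322 for UTP20, all kept under every alternative. At 4 h ruxolitinib gave -0.20 ± 0.06, adjusted p = 0.0203 for RRP12, a call lost without DMSO replicate 2 or ruxolitinib replicate 1 (adjusted p = 0.201 to 0.266). It gave -0.17 ± 0.05, adjusted p = 0.0337 for DDX21, a call lost in the fit to the libraries of that time alone, without DMSO replicate 2 or ruxolitinib replicate 1 (adjusted p = 0.0617 to 0.384).

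UTP4, UTP15, WDR43 and WDR75 belong to the complex that first binds the nascent precursor and links its transcription to processing. With ruxolitinib at 48 h all 4 were lower. UTP4 had 71.5 and 71.9 CPM under ruxolitinib, against 86.5 and 88.3 CPM under DMSO (-0.29 ± 0.05, adjusted p = 6.21e-05) and WDR43 had 189 and 176 CPM under ruxolitinib, against 215 and 214 CPM under DMSO (-0.23 ± 0.05, adjusted p = 0.000595), and both calls were kept under every alternative. UTP15 (-0.28 ± 0.07, adjusted p = 0.00578) lost its call without DMSO replicate 2 or ruxolitinib replicate 2 (adjusted p = 0.061 to 0.085), and WDR75 (-0.19 ± 0.05, adjusted p = 0.00422) lost its call without ruxolitinib replicate 2 (adjusted p = 0.0518). At 4 h ruxolitinib also lowered UTP15 (-0.25 ± 0.07, adjusted p = 0.033), UTP4 (-0.18 ± 0.05, adjusted p = 0.0186) and WDR43 (-0.16 ± 0.05, adjusted p = 0.034). The UTP15 call was lost without any 1 of the 4 libraries compared (adjusted p = 0.103 to 0.212). The UTP4 call was lost without either DMSO library or ruxolitinib replicate 2 (adjusted p = 0.0657 to 0.33), and the WDR43 call without any 1 of the 4 libraries compared (adjusted p = 0.0666 to 0.27).
At 4 h WDR75 fell most with pacritinib. It had 83.8 and 86.5 CPM under ruxolitinib, 82.2 and 89.1 under fedratinib, 83.99 and 84.6 under momelotinib, 76.6 and 73.5 under pacritinib and 92.97 and 88.7 under itacitinib, against 93.8 and 94.7 CPM under DMSO, and the pacritinib libraries were the lowest of that time. The log2 fold change with pacritinib was -0.33 ± 0.05, adjusted p = 4.23e-06, kept under every alternative. With momelotinib at 4 h it was -0.16 ± 0.05, adjusted p = 0.0445, lost with no low-count filter, in the fit to the libraries of that time alone or without any 1 of the 4 libraries compared (adjusted p = 0.0906 to 0.249). At 48 h WDR75 was at 81.997 and 82.4 CPM under pacritinib, against 91.8 and 92.8 CPM under DMSO (-0.17 ± 0.05, adjusted p = 0.0164). This call was lost without any 1 of the 4 libraries compared (adjusted p = 0.0542 to 0.0824). UTP15 was at 27.4 and 28.9 CPM under pacritinib, against 32.3 and 33.6 CPM under DMSO (-0.23 ± 0.07, adjusted p = 0.0309), and this call was lost without any 1 of the 4 libraries compared (adjusted p = 0.0503 to 0.185). With pacritinib at 4 h UTP15 (-0.20 ± 0.07, adjusted p = 0.0333), WDR43 (-0.13 ± 0.05, adjusted p = 0.0371) and NOP14 (-0.13 ± 0.05, adjusted p = 0.0338), another early factor, were lower. Those calls were lost with no low-count filter, without either DMSO library or pacritinib replicate 2 (adjusted p = 0.0571 to 0.292) for UTP15, with RLE scaling, with no low-count filter or without any 1 of the 4 libraries compared (adjusted p = 0.0526 to 0.23) for WDR43 and with no low-count filter, without DMSO replicate 2 or pacritinib replicate 2 (adjusted p = 0.0581 to 0.33) for NOP14. With fedratinib at 4 h UTP4 was lower (-0.19 ± 0.05, adjusted p = 0.0484), a call lost with no low-count filter, in the fit to the libraries of that time alone or without any 1 of the 4 libraries compared (adjusted p = 0.0838 to 0.353).

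The later small-subunit factors BYSL, NOB1 and TSR1 gave smaller values. BYSL, which stays on the particle through export, was lower with ruxolitinib at 4 h (-0.21 ± 0.05, adjusted p = 0.00488) and at 48 h (-0.19 ± 0.05, adjusted p = 0.00479). The first call was lost without DMSO replicate 2 or ruxolitinib replicate 2 (adjusted p = 0.052 to 0.13). The second was lost without DMSO replicate 1 or ruxolitinib replicate 2 (adjusted p = 0.0861 to 0.159). TSR1, a late factor that holds the place of a translation factor, was higher with pacritinib at 4 h, at 113 and 120.0 CPM under pacritinib, against 102 and 107 CPM under DMSO (0.15 ± 0.05, adjusted p = 0.0199). It was lower with ruxolitinib at 48 h, at 95.6 and 90.03 CPM under ruxolitinib, against 108 and 103 CPM under DMSO (-0.19 ± 0.05, adjusted p = 0.0063). The TSR1 call at 4 h was lost without DMSO replicate 1 or pacritinib replicate 2 (adjusted p = 0.208 to 0.22), and that at 48 h without DMSO replicate 1 or ruxolitinib replicate 2 (adjusted p = 0.0949 to 0.123). NOB1, the nuclease that makes the final end of the small-subunit rRNA, was lower with pacritinib at 4 h (-0.17 ± 0.06, adjusted p = 0.0229), a call lost without DMSO replicate 2 or either pacritinib library (adjusted p = 0.0585 to 0.156). Part of the exonic length of TSR1 (20.7%) and of NOB1 (20.3%) overlaps a gene on the other strand, and the sources used here do not give the strand setting of the counting.

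Of the 11 large-subunit factors, 4 were lower with ruxolitinib at 4 h and 6 at 48 h. NIP7, needed for processing toward the large subunit (ENSG00000132603, chromosome 16 from 69337996 to 69343111), had 39.3 and 44.2 CPM under ruxolitinib, 46.5 and 45.7 under fedratinib, 44.99 and 44.4 under momelotinib, 56.8 and 57.1 under pacritinib and 48.1 and 49.9 under itacitinib, against 53.8 and 56.1 CPM under DMSO at 4 h. Every library of ruxolitinib, fedratinib, momelotinib and itacitinib was below DMSO, and pacritinib was above it. NIP7 was lower with ruxolitinib (-0.40 ± 0.06, adjusted p = 3.26e-05), kept under every alternative. With momelotinib (-0.30 ± 0.06, adjusted p = 0.00159) the call was lost without DMSO replicate 2 (adjusted p = 0.054). With fedratinib (-0.26 ± 0.06, adjusted p = 0.0257) it was lost in the fit to the libraries of that time alone or without any 1 of the 4 libraries compared (adjusted p = 0.0504 to 0.317). With pacritinib it was not called (0.05 ± 0.06, adjusted p = 0.583). Of its exonic length, 20.2% overlaps COG8 on the other strand. At 48 h NIP7 had 44.7 and 41.03 CPM under ruxolitinib, against 47.3 and 48.9 CPM under DMSO (-0.17 ± 0.06, adjusted p = 0.0494), a call lost with no low-count filter, in the fit to the libraries of that time alone, without either DMSO library or ruxolitinib replicate 2 (adjusted p = 0.0553 to 0.388).

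RRS1, which helps to bring in the 5S particle, had 74.4 and 77.3 CPM under ruxolitinib, 75.2 and 70.6 under fedratinib, 78.3 and 76.6 under momelotinib, 89.4 and 80.4 under pacritinib and 81.8 and 87.6 under itacitinib, against 87.9 and 92.4 CPM under DMSO at 4 h. Pacritinib replicate 1 was above DMSO replicate 1, and the ruxolitinib, fedratinib and momelotinib libraries were below all others. The log2 fold change was -0.31 ± 0.06, adjusted p = 0.00285 with fedratinib, -0.25 ± 0.06, adjusted p = 0.00368 with ruxolitinib and -0.22 ± 0.06, adjusted p = 0.0141 with momelotinib. The calls were lost without DMSO replicate 2 or fedratinib replicate 2 (adjusted p = 0.0936 to 0.116) for fedratinib and without DMSO replicate 2 or ruxolitinib replicate 1 (adjusted p = 0.0685 to 0.0954) for ruxolitinib. For momelotinib the call was lost without DMSO replicate 2 or momelotinib replicate 2 (adjusted p = 0.0838 to 0.215). NOP2, a methyltransferase of the large-subunit rRNA, had 149 and 154 CPM under ruxolitinib and 152 and 139 under pacritinib, against 169 and 178 CPM under DMSO at 4 h. It was lower with pacritinib (-0.26 ± 0.05, adjusted p = 0.00011), kept under every alternative. With ruxolitinib (-0.20 ± 0.05, adjusted p = 0.00745) the call was lost without DMSO replicate 2 or ruxolitinib replicate 1 (adjusted p = 0.119 to 0.159). Of the exonic length of NOP2, 54.4% overlaps AC006064.6 on the same strand, so reads there cannot be assigned to one gene.

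The PeBoW complex of PES1, BOP1 and WDR12 is required for maturation of the large subunit. PES1 had 112 and 116 CPM under ruxolitinib, against 136 and 134 CPM under DMSO at 48 h and was lower with ruxolitinib (-0.24 ± 0.05, adjusted p = 0.000213, kept under every alternative). BOP1 was at 301 and 323 CPM under ruxolitinib, against 383 and 345 CPM under DMSO (-0.22 ± 0.06, adjusted p = 0.00253), a call lost without DMSO replicate 1 or ruxolitinib replicate 1 (adjusted p = 0.0729 to 0.121). WDR12 was not called with ruxolitinib at 48 h (-0.07 ± 0.05, adjusted p = 0.394) and was lower with pacritinib at 4 h (-0.17 ± 0.05, adjusted p = 0.00975), a call lost without DMSO replicate 2 or pacritinib replicate 1 (adjusted p = 0.0734 to 0.0807).
MRTO4, a factor that resembles a stalk protein and holds its place, had 133 and 126 CPM under ruxolitinib, against 155 and 159 CPM under DMSO at 48 h (-0.28 ± 0.05, adjusted p = 0.000132), kept under every alternative. NOP2 had 143 and 139.7 CPM under ruxolitinib, against 173 and 162 CPM under DMSO (-0.24 ± 0.05, adjusted p = 0.000288), kept likewise. GNL3, nucleostemin, was lower with ruxolitinib at 48 h (-0.16 ± 0.05, adjusted p = 0.0103), a call lost without DMSO replicate 1 or ruxolitinib replicate 2 (adjusted p = 0.08 to 0.0959). At 4 h MRTO4 was lower with ruxolitinib (-0.18 ± 0.05, adjusted p = 0.0284), a call lost in the fit to the libraries of that time alone, without either DMSO library or ruxolitinib replicate 2 (adjusted p = 0.0515 to 0.413). With fedratinib it was lower too (-0.19 ± 0.05, adjusted p = 0.048), and that call was lost in the fit to the libraries of that time alone or without any 1 of the 4 libraries compared (adjusted p = 0.0945 to 0.29). NOP16, PPAN and LYAR were called in 0 of the 10 comparisons with DMSO. Of the exonic length of PPAN, 56.0% is shared with the read-through gene PPAN-P2RY11. Its log2 fold change with ruxolitinib at 4 h was -0.33 ± 0.11, adjusted p = 0.051.

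The 11 members with an E-box window were set beside the 22 without one. With ruxolitinib at 48 h, 9 of the 11 were lower, with a median log2 fold change of -0.24, and 9 of the 22 were lower and 1 higher, with a median of -0.13. The E-box members NOP10 and NOP14 were not called, and BYSL and FBL, whose sites are not printed, were lower. With ruxolitinib at 4 h the medians were -0.16 with and -0.12 without an E-box. The order was the other way with momelotinib at 4 h, where 0 of 11 members with an E-box were lower (median -0.11) and 3 of 22 without one (median -0.12). It was also the other way with itacitinib at 4 h (medians -0.06 and -0.07) and with pacritinib at 48 h (medians -0.03 and -0.05). The medians were -0.16 with and -0.12 without an E-box for fedratinib and -0.08 and -0.04 for pacritinib at 4 h. At 48 h they were 0.02 and 0.03 for fedratinib, -0.06 and -0.04 for momelotinib and -0.05 and -0.02 for itacitinib. No test was made of this split, which is a description of these windows.

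The other genes of the pathway were followed in 4 lists, of 45 early and small-subunit factors, 52 large-subunit factors, 11 further RNA polymerase I genes and 15 genes of the nuclear exosome and rRNA trimming. All 123 were tested. With ruxolitinib at 48 h, 65 were lower and 3 higher (52.8 and 2.44%, median log2 fold change -0.16), and with ruxolitinib at 4 h 27 were lower and 0 higher (median -0.08). By list at 48 h these were 25 of 45, 33 of 52, 4 of 11 and 3 of 15 lower. Of all tested genes, ruxolitinib lowered 13.2% and raised 12.5% at 48 h, and lowered 5.04% and raised 3.42% at 4 h. At 4 h fedratinib lowered 10 and raised 0, momelotinib lowered 20 and raised 1, pacritinib lowered 45 and raised 9, and with itacitinib edgeR and DESeq2 called 0 (and 17 were at an unadjusted p under 0.05). At 48 h fedratinib lowered 3 and raised 3, momelotinib lowered 3, pacritinib lowered 16 and raised 3, and with itacitinib edgeR and DESeq2 called 0 (8 at an unadjusted p under 0.05). The shares of all genes lower and higher at 4 h were 0.97% and 0.616% (fedratinib), 3.79% and 2.21% (momelotinib) and 17.4% and 13.1% (pacritinib). At 48 h they were 4.04% and 3.66% (fedratinib), 0.946% and 0.995% (momelotinib) and 10.1% and 8.26% (pacritinib). For itacitinib they were 0.106% and 0.672% at 4 h and 0.355% and 0.0871% at 48 h. Both directions together, fewer of the 123 than of all genes were called with fedratinib and with pacritinib at 48 h, as a share.
Without ruxolitinib replicate 2 the ruxolitinib total at 48 h of 68 was 29, without DMSO replicate 1 it was 45. The ruxolitinib total at 4 h of 27 was 15 when DMSO replicate 2 was left out, 14 for ruxolitinib replicate 1 and 13 for ruxolitinib replicate 2. The pacritinib total of 54 at 4 h was 35 without pacritinib replicate 2. The momelotinib total of 21 at 4 h was 10 without DMSO replicate 1, 6 without DMSO replicate 2 and 11 without momelotinib replicate 1. Without any 1 of the 4 libraries compared the fedratinib total of 10 at 4 h was 0 to 2 and the pacritinib total of 19 at 48 h was 6 to 12. The momelotinib total of 3 at 48 h was then 0. The fedratinib total of 6 at 48 h was 2 without DMSO replicate 2 or fedratinib replicate 1.

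CD3EAP, another subunit of RNA polymerase I, was called lower at 4 h with the same 4 inhibitors as POLR1B. It had 9.99 and 8.83 CPM under ruxolitinib, 9.99 and 10.8 under fedratinib, 10.3 and 8.49 under momelotinib, 10.4 and 11.1 under pacritinib and 10.7 and 10.99 under itacitinib, against 14.95 and 12.98 CPM under DMSO. Every inhibitor library was below both DMSO libraries, including those of itacitinib, with which CD3EAP was not called. The log2 fold change was -0.57 ± 0.11, adjusted p = 0.000741 with ruxolitinib and -0.57 ± 0.11, adjusted p = 0.00084 with momelotinib, both kept under every alternative, -0.42 ± 0.11, adjusted p = 0.0406 with fedratinib and -0.37 ± 0.11, adjusted p = 0.00895 with pacritinib. The fedratinib call was lost in the fit to the libraries of that time alone or without any 1 of the 4 libraries compared (adjusted p = 0.0796 to 0.28) and the pacritinib call without DMSO replicate 1 or pacritinib replicate 1 (adjusted p = 0.076 to 0.129). EXOSC4, a subunit of the exosome that trims rRNA, had 18.1 and 17.8 CPM under ruxolitinib, 21.4 and 18.8 under momelotinib and 18.4 and 16.3 under pacritinib, against 30.2 and 29.5 CPM under DMSO at 4 h, with all 6 inhibitor libraries below DMSO. It fell with pacritinib (-0.78 ± 0.09, adjusted p = 1.16e-07), ruxolitinib (-0.73 ± 0.10, adjusted p = 1.55e-06) and momelotinib (-0.57 ± 0.09, adjusted p = 9.99e-05), all kept under every alternative. RIOK1, a kinase of late small-subunit maturation, fell at 4 h with pacritinib (-0.78 ± 0.07, adjusted p = 2.56e-10), kept under every alternative. It also fell with ruxolitinib (-0.29 ± 0.07, adjusted p = 0.00461), a call lost without DMSO replicate 1 or ruxolitinib replicate 1 (adjusted p = 0.0633 to 0.111). With fedratinib (-0.25 ± 0.07, adjusted p = 0.045) the call was lost with no low-count filter, in the fit to the libraries of that time alone, without either DMSO library or fedratinib replicate 1 (adjusted p = 0.0613 to 0.439). With momelotinib (-0.24 ± 0.07, adjusted p = 0.0231) it was lost with no low-count filter, in the fit to the libraries of that time alone or without any 1 of the 4 libraries compared (adjusted p = 0.0535 to 0.175).
At 48 h with ruxolitinib the largest decreases were in UTP14A (-0.46 ± 0.06, adjusted p = 4.48e-07), EBNA1BP2 (-0.45 ± 0.05, adjusted p = 1.3e-08), MYBBP1A (-0.42 ± 0.05, adjusted p = 1.66e-08) and DHX37 (-0.39 ± 0.04, adjusted p = 1.46e-08), all kept under every alternative.

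**Figure D4:**
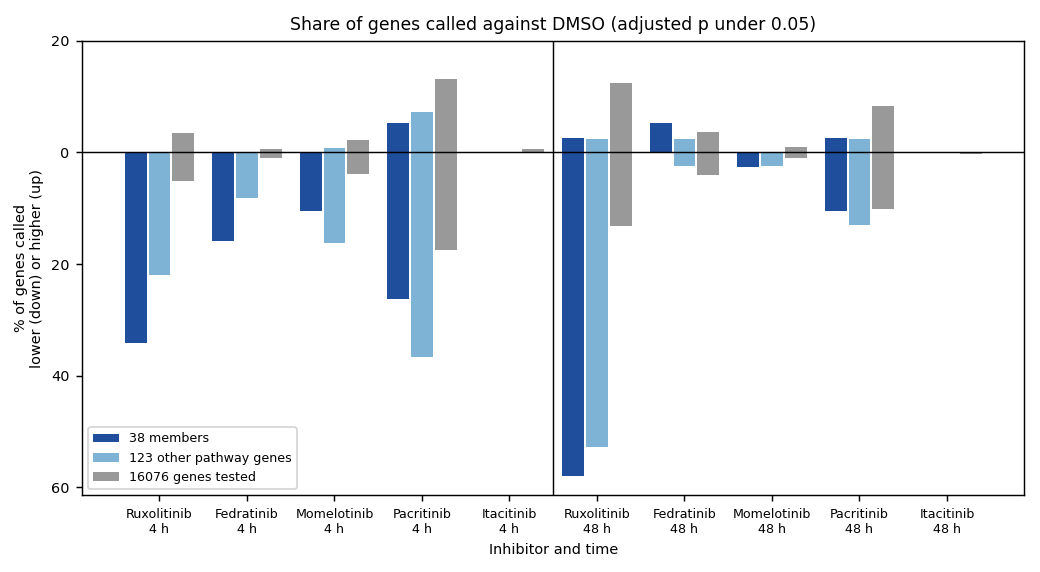
Percent of genes called lower (bars down) or higher (bars up) than DMSO in each comparison, for the 38 members (dark blue), the 123 other genes of the pathway (light blue) and all 16076 tested genes (grey). For ruxolitinib at 48 h the bars down reach 57.9, 52.8 and 13.2%. The tested genes include many at lower counts than the members.

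Between the times, DMSO itself was lower for 5 members at 48 h than at 4 h and higher for 0, against 4.12% and 4.04% of all genes. They were RRN3 (-0.28 ± 0.06, adjusted p = 0.0013), POLR1C (-0.25 ± 0.08, adjusted p = 0.043), NIP7 (-0.19 ± 0.06, adjusted p = 0.0442), DDX21 (-0.19 ± 0.05, adjusted p = 0.0188) and PES1 (-0.18 ± 0.05, adjusted p = 0.0153). The count was 3 without DMSO replicate 1 at 4 h, 1 without DMSO replicate 2 at 4 h, 0 without DMSO replicate 1 at 48 h and 2 without DMSO replicate 2 at 48 h, and 0 of the 5 calls were kept under every alternative. RRN3 lost its call without DMSO replicate 1 at 48 h (adjusted p = 0.0615).

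The change of an inhibitor's effect from one time to the other was tested as an interaction, which sets the 48 h effect over the 4 h effect. A higher effect means a more positive log2 fold change over DMSO at 48 h than at 4 h, and a lower effect a more negative one. A higher effect can therefore be a decrease at 4 h that was smaller or absent at 48 h. With ruxolitinib 4 members had a lower effect at 48 h and 2 a higher one, against 4.4% and 4.32% of all genes. RRN3 (0.40 ± 0.08, adjusted p = 0.000702) was kept under every alternative. The call of RRP9 (-0.35 ± 0.09, adjusted p = 0.00649) was lost without ruxolitinib replicate 1 at 4 h (adjusted p = 0.056). That of RRP12 (-0.30 ± 0.08, adjusted p = 0.0113) was lost without DMSO replicate 1 at 4 h, ruxolitinib replicate 2 at 4 h or DMSO replicate 1 at 48 h (adjusted p = 0.0624 to 0.0891). That of DDX21 (-0.25 ± 0.07, adjusted p = 0.031) was lost without DMSO replicate 1 at 4 h, ruxolitinib replicate 2 at 4 h, DMSO replicate 2 at 48 h or ruxolitinib replicate 2 at 48 h (adjusted p = 0.143 to 0.189). NOP56 (0.24 ± 0.07, adjusted p = 0.0171) lost its call in 6 of the 8 fits with 1 library left out (adjusted p = 0.0505 to 0.0748). FBL (-0.20 ± 0.06, adjusted p = 0.0396) lost its call in 6 of those 8 and with no low-count filter (adjusted p = 0.0566 to 0.185). The count of 6 was 3 without DMSO replicate 1 at 4 h, DMSO replicate 1 at 48 h or ruxolitinib replicate 2 at 48 h.
With fedratinib 8 members had a higher effect at 48 h and 0 a lower one, against 2% and 2.12% of all genes. The count of 8 was 2 when DMSO replicate 2 at 48 h was left out, 3 for DMSO replicate 2 at 4 h or fedratinib replicate 1 at 48 h, 4 for fedratinib replicate 2 at either time and 5 for fedratinib replicate 1 at 4 h. NOP56 (0.36 ± 0.07, adjusted p = 0.000905) and RRS1 (0.39 ± 0.08, adjusted p = 0.00353) were kept under every alternative. POLR1C (0.51 ± 0.11, adjusted p = 0.00521) lost its call without fedratinib replicate 2 at 4 h or DMSO replicate 2 at 48 h (adjusted p = 0.0518 to 0.0555). BYSL (0.30 ± 0.07, adjusted p = 0.0118) lost its call without DMSO replicate 2 at 4 h, DMSO replicate 2 at 48 h or fedratinib replicate 1 at 48 h (adjusted p = 0.0594 to 0.141).
With pacritinib 5 members had a lower effect at 48 h and 4 a higher one, against 7.58% and 10.3% of all genes. The members' share with a higher effect stood near that of all genes. The count of 9 was 4 when pacritinib replicate 2 at 4 h was left out and 5 for DMSO replicate 1 at either time. POLR1C (0.49 ± 0.11, adjusted p = 0.00182), UBTF (0.30 ± 0.07, adjusted p = 0.00175), FBL (-0.33 ± 0.06, adjusted p = 0.000312) and NOLC1 (-0.25 ± 0.06, adjusted p = 0.0037) were kept under every alternative. POLR1B (0.25 ± 0.08, adjusted p = 0.0171) was lost without DMSO replicate 1 at 4 h, DMSO replicate 2 at 4 h, pacritinib replicate 2 at 4 h, DMSO replicate 1 at 48 h, DMSO replicate 2 at 48 h or pacritinib replicate 1 at 48 h (adjusted p = 0.0506 to 0.117). For momelotinib edgeR called 0 members (DESeq2 2, and 7 at an unadjusted p under 0.05), against 0.759% of all genes with a lower effect and 1.57% with a higher one. For itacitinib edgeR called 0 (DESeq2 0, and 4 at an unadjusted p under 0.05), against 0.0124% and 0%.

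**Figure D5:**
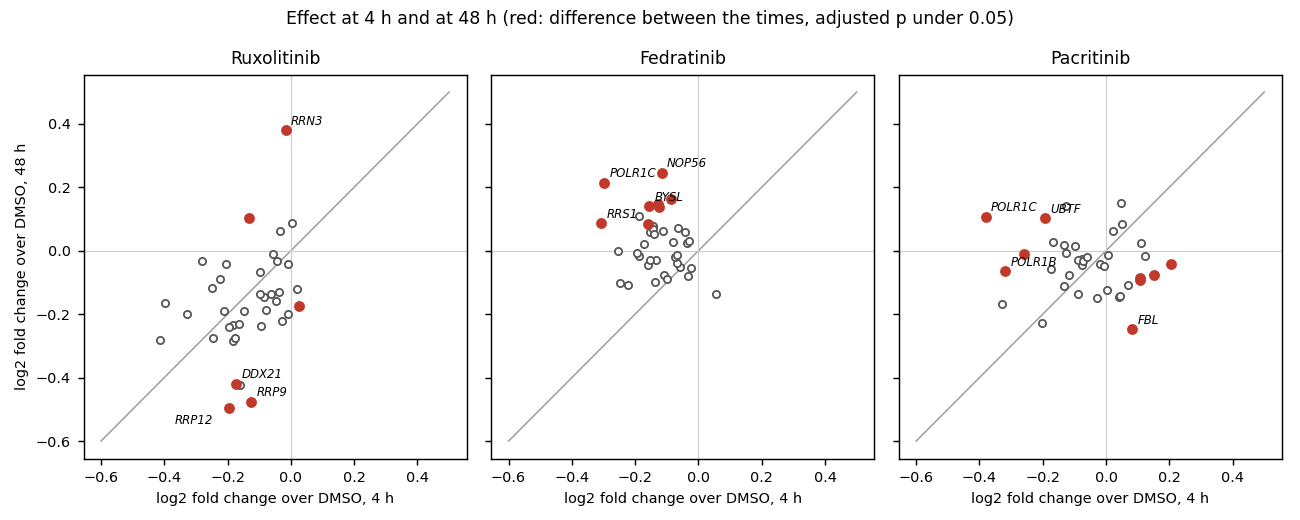
Log2 fold change over DMSO at 4 h (horizontal axis) and at 48 h (vertical axis) for the 38 members with ruxolitinib, fedratinib and pacritinib, with equality on the grey line and red where the difference between the times had an adjusted p under 0.05. For fedratinib the 8 red members all lie above the line, with POLR1C 0.51 and RRS1 0.39 higher at 48 h.

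The inhibitors were also compared with each other at the same dose and time, in 10 pairs per time. Ruxolitinib and itacitinib share a pyrrolopyrimidine core. At 4 h ruxolitinib was lower than itacitinib for 3 members and higher for 0 (3.61% and 2.29% of all genes), namely POLR1B (-0.28 ± 0.05, adjusted p = 0.000849), NIP7 (-0.23 ± 0.06, adjusted p = 0.0217) and BYSL (-0.18 ± 0.05, adjusted p = 0.0213). At 48 h it was lower for 14 and higher for 1 (10.2% and 11.7% of all genes), with RRP9 at -0.43 ± 0.06, RRP12 at -0.40 ± 0.06 and RRN3 at 0.39 ± 0.05 on the log2 scale. Against the other inhibitors at 48 h ruxolitinib was lower for 21 members and higher for 1 than fedratinib (10.5% and 10.1% of all genes), lower for 11 and higher for 1 than momelotinib (10.7% and 10.3%), and lower for 14 and higher for 1 than pacritinib (11.8% and 12.8%). The single higher member was RRN3 in each of the 4 pairs.
Between ruxolitinib and momelotinib at 4 h edgeR called 0 members (1 at an unadjusted p under 0.05), against 0.367% of all genes lower and 0.355% higher. The 95% intervals of these 38 differences lay between -0.36 and 0.18 on the log2 scale, so differences inside that range are not shown to be absent. NIP7 set pacritinib apart at 4 h, with ruxolitinib -0.45 ± 0.06, fedratinib -0.31 ± 0.06 and momelotinib -0.35 ± 0.06 relative to it. The remaining pairs are given as counts of members lower and higher in the first-named inhibitor, with the percent of all genes for each. At 4 h ruxolitinib against fedratinib gave 1 and 0 (2.12% and 1.4%), and ruxolitinib against pacritinib 8 and 2 (11.1% and 14.5%). Fedratinib against pacritinib gave 13 and 1 (12.1% and 16.6%), and momelotinib against pacritinib 6 and 2 (7.96% and 12.8%). Pacritinib against itacitinib gave 6 and 9 (16.6% and 12.6%). With 0 called by edgeR at 4 h were fedratinib against momelotinib (0.404% and 1%), fedratinib against itacitinib (0.18% and 0.0809%) and momelotinib against itacitinib (1.87% and 0.883%). Their counts at an unadjusted p under 0.05 were 2, 10 and 9. At 48 h fedratinib gave 0 and 5 against momelotinib (3.81% and 2.87%), 0 and 2 against pacritinib (5.52% and 6.48%) and 0 and 4 against itacitinib (2.47% and 3.47%). Pacritinib against itacitinib gave 2 and 1 (7.47% and 8.14%). With 0 called at 48 h were momelotinib against pacritinib (3.31% and 4.76%) and momelotinib against itacitinib (0.249% and 0.759%), with 2 and 3 at an unadjusted p under 0.05.
Over the 10 pairs there were 51 calls among members at 4 h and 78 at 48 h (59 and 84 by DESeq2), which became 28 without pacritinib replicate 2 at 4 h and 49 without ruxolitinib replicate 2 at 48 h.

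Some values that moved with ruxolitinib are given beside the members' changes. RN7SL RNAs took 3.92 and 3.99% of counts with ruxolitinib at 48 h, against 3.05 and 3.36% with DMSO, and 3.20 and 3.01% at 4 h, against 2.42 and 2.52% with DMSO. At 4 h every inhibitor library was above both DMSO libraries, those of itacitinib included (3.33 and 3.57%). RN7SL RNAs took 4.67 and 4.42% with fedratinib and 4.52 and 4.76% with pacritinib at 48 h. Mitochondrial rRNA took 0.0604 and 0.0611% of counts with ruxolitinib at 4 h, against 0.0181 and 0.00715% with DMSO, and 0.0627 and 0.0584% at 48 h, against 0.0586 and 0.0912% with DMSO. The HEL markers HBG2 (0.72 ± 0.06) and KLF1 (0.52 ± 0.05) were higher with ruxolitinib at 48 h, all on the log2 scale. Their part in the result was not tested. MYC, which activates many genes of ribosome biogenesis, had 821 and 815 CPM under ruxolitinib and 839.6 and 806 under momelotinib, against 917 and 915 CPM under DMSO at 4 h. At 48 h it had 785 and 799 CPM under ruxolitinib, against 748 and 726 CPM under DMSO. It was lower with ruxolitinib at 4 h (-0.16 ± 0.04, adjusted p = 0.00588), a call lost without DMSO replicate 2 or ruxolitinib replicate 2 (adjusted p = 0.0505 to 0.0766). It was higher at 48 h (0.10 ± 0.04, adjusted p = 0.0495), a call lost with RLE scaling, with no low-count filter or without any 1 of the 4 libraries compared (adjusted p = 0.065 to 0.32). Its part was likewise not tested.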

How the data were processed

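RNA from 24 HEL libraries was sequenced on an Illumina instrument. The authors deposited a table of counts per gene. Per the submitters' processing notes bcl2fastq, STAR 2.5.1a, the build GRCh38 and edgeR were used. The sources used here give no counting tool, annotation or strand setting. Of 34343 rows, 130 repeated an identifier with identical counts and were dropped, which left 34213 genes. Totals per library were 32153866 to 56618281, and no 2 libraries of a group agreed within sampling noise.

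Genes that passed the filter of edgeR (filterByExpr) were scaled by TMM and fitted in 1 quasi-likelihood model of 12 groups (edgeR 4.0.16, limma 3.58.1, R 4.3.3), with a residual 12 degrees of freedom. For 36 comparisons p-values were adjusted by Benjamini-Hochberg over 16076 genes within each comparison, with a threshold of 0.05. Errors on log2 fold changes are standard errors. The test was checked on simulated data. Alternatives were DESeq2 1.42.0, RLE scaling, no filter on low counts, a stricter filter (1 CPM in 6 libraries), the replicate number as a block, the libraries of 1 time alone and each library left out. The counts of other pathway genes under these alternatives were added after seeing the data. The members and lists were chosen with earlier results of these data known. Any member may be named. Per-library values were set for the 4 largest called changes per comparison with DMSO, and those of further members were added after their values were seen. Other pathway genes were named from the 4 largest called per list.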

Additional observations from a re-analysis of the deposited data

Results flagged for a closer look

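The effect of 3 inhibitors differed between 48 h and 4 h by the test of the difference itself (edgeR quasi-likelihood interaction, adjusted over 16076 genes). It did so for 6 members with ruxolitinib, against 4.4% of all genes with a lower effect and 4.32% with a higher one. It did so for 8 members with fedratinib (2.12% and 2% of all genes) and 9 with pacritinib (7.58% and 10.3%). With pacritinib the members' share with a higher effect stood near that of all genes. With 1 library left out these counts were 3 to 5 for ruxolitinib, 2 to 6 for fedratinib and 4 to 9 for pacritinib. The 48 h effect over the 4 h effect with ruxolitinib was 0.40 for RRN3, -0.35 for RRP9, -0.30 for RRP12 and -0.25 for DDX21 on the log2 scale. With fedratinib it was 0.51 for POLR1C, 0.39 for RRS1, 0.36 for NOP56 and 0.30 for BYSL. With pacritinib it was 0.49 for POLR1C, 0.30 for UBTF, 0.25 for POLR1B and -0.33 for FBL. The effects of all inhibitors at a time are set against the same DMSO libraries, and DMSO itself was lower at 48 h for RRN3, POLR1C and DDX21. The share of the differences that this carries was not tested.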

How the results depend on the processing

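Of the 211 named values, 0 reversed under the alternatives run. The members' median for fedratinib at 48 h, 0.02, was -0.01 without fedratinib replicate 2. The count of members called against DMSO moved by more than 1.5 times as follows. For fedratinib it was 1 at 4 h and 4 at 48 h in the fit to the libraries of 1 time alone. For momelotinib at 48 h, reported as 1, it was 5 with DESeq2, 2 with no low-count filter, 2 with the stricter filter and 3 with the libraries of that time alone. For the change of the momelotinib effect between times it was 2 with DESeq2 and 1 with no filter. Left out 1 library at a time, the counts ranged over 2 to 8 (ruxolitinib), 0 to 2 (fedratinib), 1 to 5 (momelotinib), 6 to 10 (pacritinib) and 0 to 0 (itacitinib) at 4 h. At 48 h they ranged over 14 to 23 (ruxolitinib), 1 to 1 (fedratinib), 0 to 0 (momelotinib), 1 to 3 (pacritinib) and 0 to 0 (itacitinib). They ranged over 0 to 3 for DMSO between times, and over 3 to 5 (ruxolitinib), 2 to 6 (fedratinib), 0 to 2 (momelotinib), 4 to 9 (pacritinib) and 0 to 0 (itacitinib) for the effects between times. The pairs of inhibitors ranged over 28 to 56 at 4 h and 49 to 75 at 48 h. Summed over the 10 comparisons with DMSO, the other pathway lists ranged over 55 to 74 (early and small subunit, reported as 74), 79 to 105 (large subunit, 105), 8 to 13 (RNA polymerase I, 12) and 10 to 18 (exosome, 17, with 10 without DMSO replicate 2 at 48 h). Apart from fewer samples, the cause of these changes was not tested. With the replicate number as a block the count was 7 for momelotinib at 4 h and 3 at 48 h. Elsewhere the block gave 14, 6 and 12 members for ruxolitinib, fedratinib and pacritinib at 4 h and 25 for ruxolitinib at 48 h. The correlation between groups of the replicates' deviations, over all tested genes, was -0.04 to 0.05, and 0 of 66 pairs were over 0.1. Counting noise in low-count genes lowers such a correlation, so it cannot show that the replicate numbers share no pairing. Of the 211 named values, 0 lost their call under the block, 0 under DESeq2, 2 under RLE scaling and 15 with no filter, and of 936 fits with 1 library left out 365 lost it. With 2 libraries per group the smallest called change of a member against DMSO was -0.13 on the log2 scale (NOLC1 with ruxolitinib at 48 h), and larger ones missed the threshold, such as PPAN at -0.33 with ruxolitinib at 4 h.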

Other observations

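GENCODE 29 places 28 snoRNA genes within 9 members on the same strand. Of these, 25 were in the count table, 8 had 0 counts in all libraries and 14 passed the filter on low counts. In the 10 comparisons with DMSO edgeR called 3 of them (adjusted over all tested genes). Of all tested genes, 13.2% were lower with ruxolitinib at 48 h, 10.1% lower with pacritinib at 48 h and 13.1% higher with pacritinib at 4 h. In these comparisons the 14 snoRNA genes were called no more often than all genes. SNORD20, within NCL, had a log2 fold change of -0.94 ± 0.22 with ruxolitinib at 48 h (adjusted p = 0.00165), at 48 to 192 counts over the libraries. SNORD11, within NOP58, was at -1.65 with pacritinib at 48 h and 8 to 47 counts. One of the genes listed as RF00569 within GNL3 was at 1.99 with pacritinib at 4 h and 1 to 33 counts. These 3 values were not recomputed under the alternatives.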
